A study of Mus musculus with 18 samples.

Results

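The genes examined here are 10 genes of antigen presentation, found by their symbols among the 54838 genes measured in liver. They are the class I heavy chains H2-K1 and H2-D1 with their light chain B2m, the class II genes H2-Aa, H2-Ab1, H2-Eb1, Cd74 and H2-DMa, and the transactivators Ciita and Nlrc5. All 10 were found, as 3 class I genes, 5 class II genes and 2 transactivators. RNA from 18 mouse liver samples was sequenced in 6 groups of 3, from C57BL/6 mice at 36 weeks, either wild type (WT) or with a global knockout of the miR-181ab1 cluster (GKO). Normal livers came from untreated mice. Tumours and the surrounding non-tumours came from mice given 25 mg/kg diethylnitrosamine (DEN), a liver carcinogen, once by intraperitoneal injection on postnatal day 12. A global knockout lacks this locus in every cell type, immune cells and hepatocytes alike, while the Mir181a-2 locus, which also encodes miR-181 microRNAs, is not part of the deleted cluster. Which tumours and non-tumours shared a mouse is not given.

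MHC class I molecules display peptides from inside the cell to CD8+ T cells, and nearly all cells make them. Peptides cut by the proteasome enter the endoplasmic reticulum through the TAP transporter and are loaded onto a heavy chain bound to B2m. MHC class II molecules display peptides taken up from outside to CD4+ T cells. They are made mainly by dendritic cells, B cells and macrophages, while hepatocytes normally make few or none. Ciita switches on the class II genes and Nlrc5 the class I genes, both through the same promoter module, and interferon gamma can raise both programmes.

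Values are TPM, transcripts scaled to a common total, which are divided by gene length and can be compared between genes. Reads on genes, recovered from TPM and exonic length, numbered between 11925055 and 20751348 per sample (median 16973801). Hepatocyte markers were abundant in all groups, with sums over 9 genes of 76952 to 105663 TPM in the 12 samples without tumour and 194867 to 233065 TPM in the tumours. The microRNA genes themselves could not show the genotype, since Mir181b-1 was at 0 in all samples and Mir181a-1 above 0 in 1. Over all genes, WT non-tumour 2 correlated with its group at r = 0.929 and 0.933 and WT tumour 3 with its group at r = 0.919 and 0.921, whereas the other pairs of replicates had 0.941 or more, so these 2 samples stood apart. Differences were tested with limma on log2(TPM + 1), leaving out genes whose mean in the compared samples was under 0.5 TPM. A gene passed at a Benjamini-Hochberg adjusted p under 0.05 over all genes tested, and fold changes of low genes are understated on this scale. Ciita lay under that minimum in every comparison, so 9 of the 10 genes were tested.

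B2m was highest, at a mean of 5141 TPM over the 18 samples, followed by H2-K1 at 1328 TPM and H2-D1 at 778 TPM. The class II genes were lower, with means of 148 TPM for Cd74, the invariant chain that escorts class II molecules to the endosome, 89.7 TPM for H2-Eb1, 81.7 TPM for H2-Ab1, 43.25 TPM for H2-Aa and 6.01 TPM for H2-DMa, a chain of the peptide exchange factor. The transactivators were lowest, at 3.43 TPM for Nlrc5 and 0.335 TPM for Ciita. In a whole-liver sample, a higher level in a cell type and more cells of that type cannot be told apart.

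**Figure D1:**
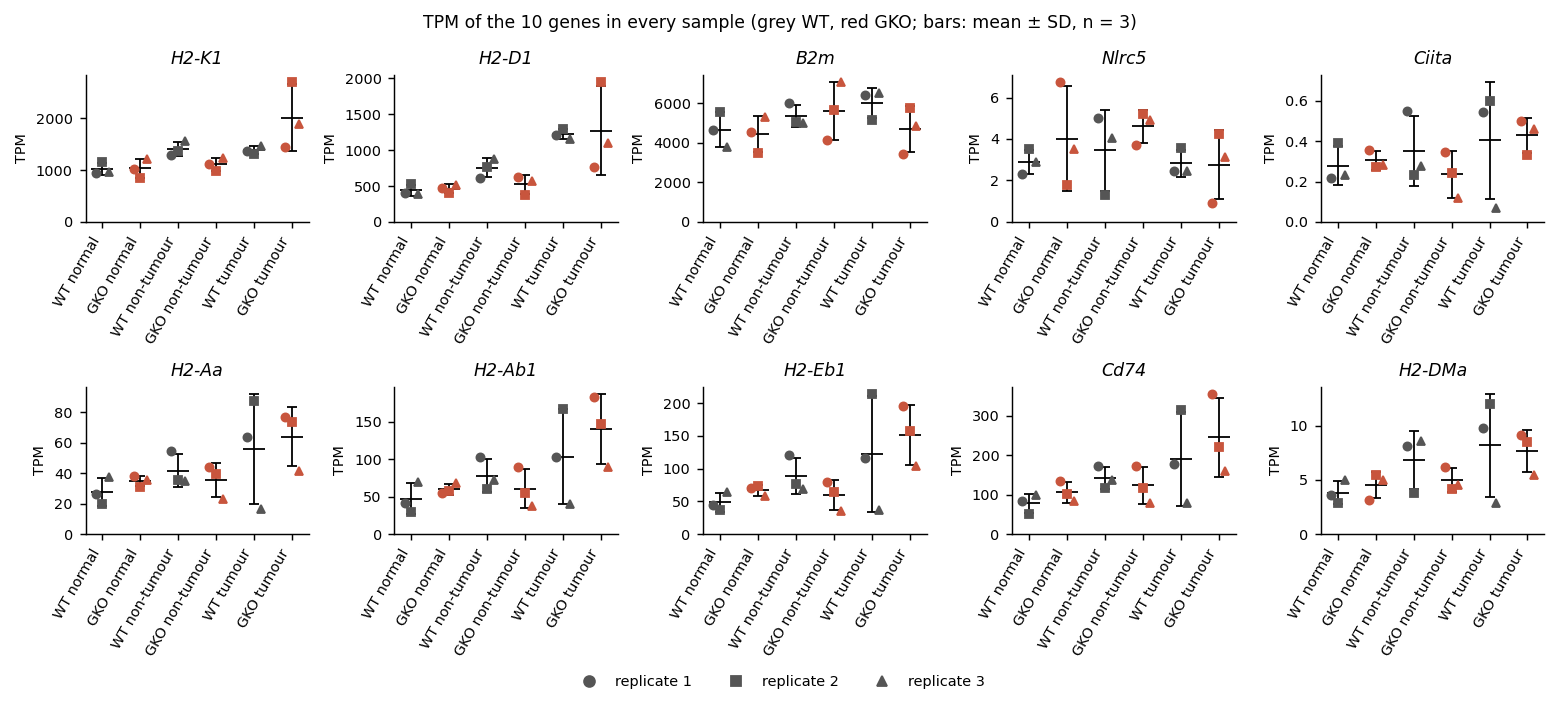
TPM of each gene in every sample, with the mean and SD (n = 3) of each group as bars, WT in grey and GKO in red, and a marker shape for each replicate number. H2-D1 was at 765 TPM or more in every tumour and at 533 TPM or less in every normal liver, while the WT tumours spread from 16.3 to 87.3 TPM in H2-Aa.

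H2-K1, H2-D1 and the class II genes other than Cd74 lie on chromosome 17 (mm10), with H2-K1 at chr17:33996017-34000347, H2-Ab1 at chr17:34257689-34269419, H2-Aa at chr17:34282744-34287823, H2-Eb1 at chr17:34305867-34316674 and H2-D1 at chr17:35262730-35267499. B2m lies apart, at chr2:122147686-122153083. RefSeq promoters on GRCm38.p6, 250 bases before to 50 bases after the start, were at hand for B2m, H2-K1, H2-D1, H2-Aa, H2-Eb1 and H2-DMa, that is for 6 of the 10 genes. The stretches of 130 bases shown here, aligned on ATTGG, let the letters of the promoter module be compared among the class I and class II genes. Capitals mark TGACG, the core of the X2 box, ATTGG, the Y box with an inverted CCAAT, GAANNGAAA or GAAANNGAA on either strand, forms of the interferon response element that can overlap each other, and GGGATTCCC, a kappa B site.
B2m, chr2:122147524-122147653, plus strand: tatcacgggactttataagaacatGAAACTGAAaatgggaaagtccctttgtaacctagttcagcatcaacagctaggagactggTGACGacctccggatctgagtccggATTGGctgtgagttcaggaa
H2-K1, chr17:34000344-34000473, minus strand: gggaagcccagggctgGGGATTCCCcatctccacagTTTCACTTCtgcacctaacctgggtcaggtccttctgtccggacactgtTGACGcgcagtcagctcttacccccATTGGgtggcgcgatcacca
H2-D1, chr17:35262908-35263037, plus strand: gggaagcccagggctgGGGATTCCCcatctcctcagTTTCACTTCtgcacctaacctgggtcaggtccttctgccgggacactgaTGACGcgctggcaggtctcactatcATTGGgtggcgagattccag
H2-Aa, chr17:34287852-34287981, minus strand: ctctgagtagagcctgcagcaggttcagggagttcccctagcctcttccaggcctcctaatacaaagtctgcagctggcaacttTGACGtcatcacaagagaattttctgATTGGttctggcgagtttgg
H2-Eb1, chr17:34305698-34305827, plus strand: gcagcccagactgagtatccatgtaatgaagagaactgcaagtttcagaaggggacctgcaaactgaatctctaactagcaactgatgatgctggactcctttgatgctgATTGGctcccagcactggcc

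TGACG was followed by ATTGG in B2m, H2-K1 and H2-D1 with starts 25 bases apart, and in H2-Aa 26 bases apart. A pair on the same strand with starts 24 to 27 bases apart was found in 78 of 32851 mouse promoters, 0.237%, whereas TGACG alone was in 20.8% and ATTGG alone in 37.4%, counting both strands. The H2-Eb1 promoter held ATTGG without TGACG. Neither of the 2 promoter entries of H2-DMa held TGACG, and 1 of them held ATTGG. The stretches of H2-K1 and H2-D1 had the same base at 114 of 130 positions, 87.7%, and both held GGGATTCCC, which was in 116 promoters of all, 0.353%. GAANNGAAA was in 7.52% and GAAANNGAA in 8.56% of promoters. These matches describe letters and show no binding.

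H2-D1, a classical class I heavy chain, rose in tumours. It was at 1215, 1292 and 1150 TPM in WT tumours and at 765, 1954 and 1097 TPM in GKO tumours. In non-tumours it was at 614, 768 and 878 TPM in WT and at 625, 378 and 563 TPM in GKO. All 3 WT tumours lay above all WT non-tumours, and all 3 GKO tumours above all GKO non-tumours. Across genotypes only GKO tumour 1 overlapped the non-tumours, lying below WT non-tumours 2 and 3. Over both genotypes the log2 fold change was 0.96 ± 0.24 (SE, 6 tumours and 6 non-tumours) with an adjusted p of 0.0156 by limma. It was the 1 of the 9 genes to pass in this comparison, in which 12.2% of all genes tested passed as higher and 20.1% in either direction, so the share of the 9 genes was not above the background. With the samples centred on their median gene, the genes passing over the whole table moved from 1719 higher and 1110 lower to 1378 higher and 1721 lower, and the log2 fold change of H2-D1 was 0.83 with an adjusted p of 0.0204. Leaving out WT non-tumour 2 gave 0.99 (adjusted p = 0.0161 by limma), and leaving out WT tumour 3 gave 1.00 (adjusted p = 0.0177). H2-D1 passed under all 22 alternatives tried, with log2 fold changes of 0.77 to 1.07.

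H2-K1, the other classical heavy chain, was at 1373, 1318 and 1473 TPM in WT tumours, against 1297, 1374 and 1552 TPM in WT non-tumours, and these groups overlapped. It was at 1440, 2707 and 1880 TPM in GKO tumours, against 1116, 985 and 1225 TPM in GKO non-tumours, which did not overlap. The log2 fold change was -0.02 ± 0.22 in WT and 0.81 ± 0.29 in GKO (adjusted p = 0.978 and 0.107 by limma, n = 3 and 3). Its genotype effect was 0.83 ± 0.35 higher in tumours than in non-tumours on the log2 scale, with an unadjusted p of 0.0345 and an adjusted p of 0.473 by limma, so the difference between the genotypes did not pass. B2m, the light chain, was at 3443 to 6529 TPM in tumours and 4126 to 7086 TPM in non-tumours, with a log2 fold change of -0.05 ± 0.20 and an adjusted p of 0.894 by limma over both genotypes.

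Ratios within a sample do not depend on how the samples were scaled. H2-D1 over B2m was 0.234 ± 0.058 (SD, n = 6) in tumours, 0.121 ± 0.045 in non-tumours and 0.0998 ± 0.0094 in normal livers. Every tumour, at 0.1761 or more, lay above every non-tumour, at 0.1759 or less, and the exact permutation p was 0.002165, the smallest that 6 against 6 samples can give, with an adjusted p of 0.039 over 18 ratio tests. In contrast, H2-K1 over B2m was 0.328 ± 0.110 in tumours and 0.236 ± 0.057 in non-tumours, with an exact permutation p of 0.106 (adjusted p = 0.278, n = 6 and 6). H2-K1 over H2-D1 was 2.28 ± 0.13 in normal livers, 2.04 ± 0.33 in non-tumours and 1.40 ± 0.33 in tumours, and the fall from non-tumours to tumours had an exact permutation p of 0.0152 but an adjusted p of 0.136 (n = 6 and 6). Few stretches of 100 bases in the 2 heavy chains matched another gene exactly, namely 0.957% of those in H2-K1 transcripts and 3.59% of those in H2-D1 transcripts. For H2-D1 these occurred most often in H2-Q1. Shorter or inexact matches were not counted.

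**Figure D2:**
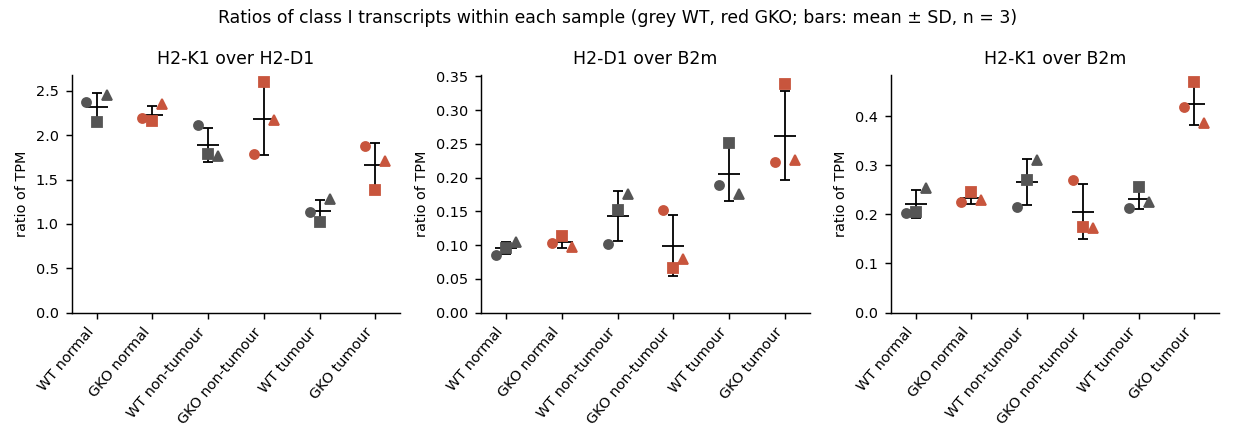
Ratio of TPM between class I genes within each sample, with the mean and SD (n = 3) of each group, WT in grey and GKO in red. H2-K1 over H2-D1 was between 1.02 and 1.28 in the 3 WT tumours and between 2.15 and 2.45 in the 6 normal livers.

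GKO and WT tumours were apart in 2 of these ratios. H2-K1 over B2m was 0.424 ± 0.042 in GKO tumours and 0.232 ± 0.022 in WT tumours (SD, n = 3), without overlap. H2-K1 over H2-D1 was 1.66 ± 0.25 in GKO tumours and 1.14 ± 0.13 in WT tumours, also without overlap. Each had an exact permutation p of 0.1 (n = 3 and 3), which is the smallest that 3 against 3 samples can give, and an adjusted p of 0.278, so neither difference could pass. H2-D1 over B2m overlapped, at 0.262 ± 0.066 in GKO and 0.205 ± 0.040 in WT tumours.

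Other class I heavy chains were read from a list of 14, of which 13 were tested. Over both genotypes 6 of the 13 were higher in tumours and 0 lower, beside 12.2% of all genes that passed as higher. The median log2 fold change was 0.79 against 0.08 over all genes tested. H2-Q7, a nonclassical chain, was at 51.6 to 209 TPM in tumours and 9.96 to 41.9 TPM in non-tumours (log2 fold change 1.77 ± 0.38, adjusted p = 0.00741 by limma). H2-Q10, a class I chain that the liver secretes, was at 1428 to 2697 TPM in tumours and 594 to 1367 TPM in non-tumours (1.14 ± 0.24, adjusted p = 0.00617 by limma). H2-Q6 and H2-T22 passed as well, at 1.56 ± 0.32 and 1.08 ± 0.22, and so did H2-Q4 and H2-T23. Of those that did not pass, H2-Q1 was at 250 TPM in WT non-tumour 2, which stood apart over all genes, and at 54.1 TPM or less in every other sample, and Cd1d1 had a log2 fold change of -0.35 ± 0.31. Stretches of 100 bases shared with other genes made up 12% of H2-Q7, 13% of H2-Q6, 8.01% of H2-Q10 and 31.5% of H2-T22, so how reads were split among these relatives is uncertain.

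Among 13 genes of class I peptide supply and loading, 3 were higher in tumours over both genotypes and 0 lower, with a median log2 fold change of 0.54. These 3 of 13 stand beside 12.2% of all genes that passed as higher and 20.1% in either direction. The 3 were Tap1 and Tap2, both subunits of the peptide transporter, at 1.17 ± 0.24 and 0.72 ± 0.18 (adjusted p = 0.00617 and 0.0168 by limma), and Tapbpl, a peptide editor, at 0.84 ± 0.20 (adjusted p = 0.0135 by limma). Tap1 was at 11.6 to 35.7 TPM in tumours and 6.25 to 15.8 TPM in non-tumours. Calr and Pdia3, chaperones of the loading complex, were the most abundant of those that did not pass, at 0.09 ± 0.41 and 0.74 ± 0.27 on the log2 scale.

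Nlrc5, the class I transactivator, was at 2.46, 3.57 and 2.45 TPM in WT tumours, 0.930, 4.23 and 3.14 TPM in GKO tumours, 5.03, 1.28 and 4.05 TPM in WT non-tumours and 3.70, 5.20 and 4.92 TPM in GKO non-tumours. The groups overlapped in both genotypes, and the log2 fold change over both was -0.40 ± 0.29 (adjusted p = 0.345 by limma). Nlrc5 correlated with the class I mean at r = 0.832 over the 6 tumours (exact permutation p = 0.0694, adjusted p = 0.157), and at -0.96 without the 2 tumours farthest from its median, so the relation rested on those. Of 16 upstream regulators tested, of 19 listed, 3 were higher in tumours and 1 was lower, beside 20.1% of all genes in either direction. Ifngr1, a chain of the interferon gamma receptor, was at 20.9 to 40.7 TPM in tumours and 5.74 to 14.6 TPM in non-tumours, without overlap (1.52 ± 0.24, adjusted p = 0.00136 by limma). Ifngr2, its partner chain, and Jak1, a kinase of the receptor, had log2 fold changes of 0.92 ± 0.30 and 0.63 ± 0.13, and Nfyb, a subunit of the factor that binds the Y box, of -0.75 ± 0.16. Irf1, which acts downstream of interferon, had -0.32 ± 0.19 and did not pass. Ifng itself was at 0 in 10 of the 18 samples. Of 19 interferon-stimulated genes 3 were higher, namely Oas1a at 1.57 ± 0.29, Cxcl9 at 1.12 ± 0.30 and Usp18 at 0.72 ± 0.23, and the median of the list was 0.11. The 3 of 19 stand beside 12.2% of all genes that passed as higher.

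**Figure D3:**
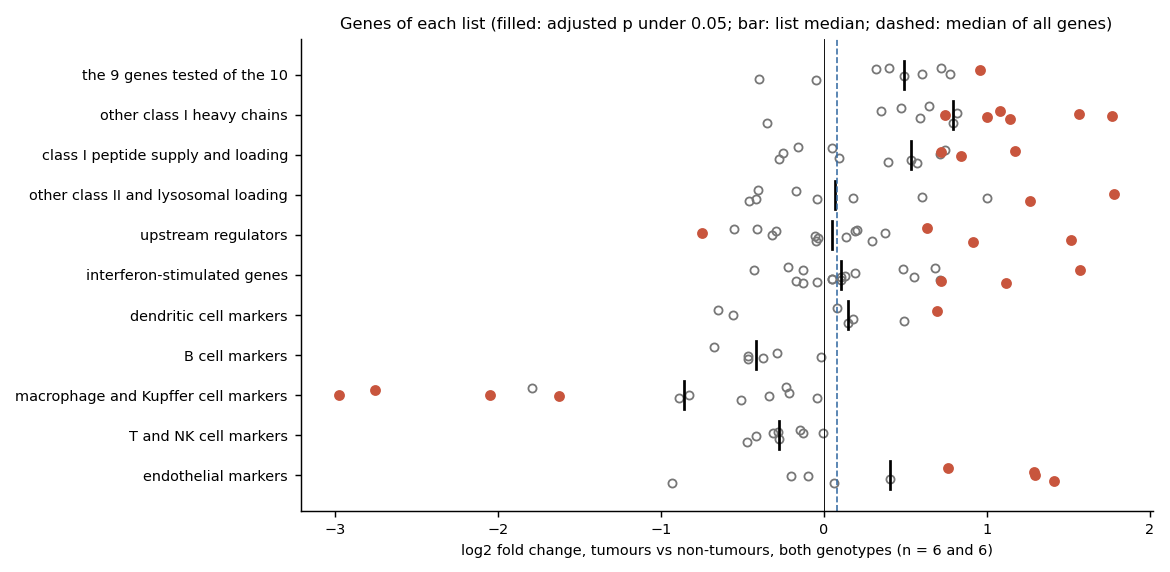
Log2 fold change between 6 tumours and 6 non-tumours over both genotypes for each gene of the lists, with filled points for genes that passed, a bar at each list's median and a dashed line at the median of all genes tested. The medians were 0.79 for other class I heavy chains, 0.54 for class I peptide supply and loading and -0.86 for macrophage and Kupffer cell markers.

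The class II genes moved together from sample to sample. H2-Ab1, the beta chain of I-A, was at 103, 167 and 40.8 TPM in WT tumours and at 183, 147 and 90.0 TPM in GKO tumours. It was at 103, 60.2 and 71.8 TPM in WT non-tumours and at 90.1, 54.65 and 38.0 TPM in GKO non-tumours. WT tumour 3 was the lowest tumour, below all WT non-tumours, and WT tumours 1 and 2 and GKO tumours 1 and 2 lay above every sample without tumour. H2-Eb1, the beta chain of I-E, was at 116, 214 and 36.8 TPM in WT tumours and at 195, 157 and 104 TPM in GKO tumours, against 120.3, 76.1 and 69.2 TPM in WT non-tumours and 79.2, 64.6 and 35.1 TPM in GKO non-tumours. The 3 GKO tumours lay above the 3 GKO non-tumours. H2-Aa, the alpha chain of I-A, ran from 16.3 TPM in WT tumour 3 to 87.3 TPM in WT tumour 2, the lowest and highest of all 18 samples. Cd74 was at 78.1 and 314 TPM in the same pair of tumours and highest in GKO tumour 1, at 356 TPM. H2-DMa ran from 2.83 to 11.9 TPM, again between WT tumour 3 and WT tumour 2. Of its exonic bases 10.4% overlap exons of Brd2, so reads there could belong to either gene.

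Each class II gene correlated across the 18 samples with the mean of the other 4. As a description, since genes in the same sample share its library and depth, Pearson r was 0.976 for H2-Ab1, 0.967 for H2-Eb1, 0.960 for H2-Aa, 0.944 for Cd74 and 0.865 for H2-DMa. After subtraction of the group means, r was 0.963, 0.959, 0.961, 0.917 and 0.822 in the same order. H2-Eb1 over H2-Ab1 was 1.10 ± 0.13 in tumours, 1.06 ± 0.16 in non-tumours and 1.11 ± 0.20 in normal livers (SD, n = 6). Cd74 over H2-Ab1 was 1.79 ± 0.17, 1.95 ± 0.16 and 1.77 ± 0.45, with normal livers from 1.21 to 2.49, and H2-Aa over H2-Ab1 was 0.487 ± 0.079, 0.571 ± 0.0875 and 0.596 ± 0.076, in the same order. Of the class II ratio tests 0 passed after adjustment, with the smallest exact permutation p among those adjusted at 0.108 (adjusted p = 0.278, n = 6 and 6). That was H2-Aa over H2-Ab1 in tumours against non-tumours. With WT tumours 1 and 2 averaged, its exact permutation p was 0.052, without adjustment (n = 5 and 6). H2-K1, H2-D1 and B2m had r = 0.750, 0.763 and 0.369 with the other 2 class I genes, and 0.960, 0.690 and 0.539 after subtraction of the group means. The class II mean correlated with H2-D1 at r = 0.542 over all samples and at -0.08 after subtraction of the group means.

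**Figure D4:**
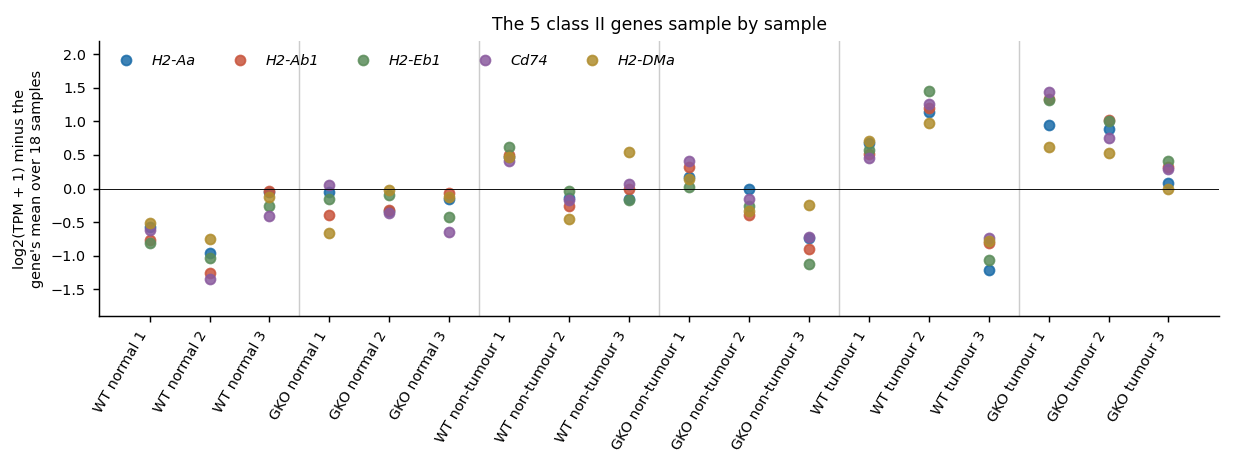
Log2(TPM + 1) of the 5 class II genes in each of the 18 samples, as the difference from the gene's own mean, with a colour for each gene. The 5 points of a sample lie close together, and the genes are all low in WT tumour 3 and all high in WT tumour 2.

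Ciita, the class II transactivator, was at 0.546, 0.600 and 0.0713 TPM in WT tumours, which are 43, 47 and 6 reads. It was at 0.499, 0.333 and 0.460 TPM in GKO tumours, and at 0.117 to 0.549 TPM in the 12 samples without tumour. WT tumour 3, lowest in the class II genes, was also lowest in Ciita, at a count too low for a precise level. Across the 6 tumours Ciita correlated with the class II mean at r = 0.862 (exact permutation p = 0.0542, adjusted p = 0.156 over 26 relations). Spearman's rho there was 0.714 (exact permutation p = 0.136, adjusted p = 0.323). Across the 12 samples without tumour r was 0.468 (permutation p = 0.121, adjusted p = 0.229, n = 12). Without the 2 samples farthest from the median of Ciita, r was 0.681 and -0.19.

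Markers of cells that carry class II were read beside these genes. Itgax, CD11c of dendritic cells and some macrophages, was at 0.637 TPM in WT tumour 3 and at 1.32 to 3.04 TPM in the other tumours, and was the 1 of 7 dendritic cell markers tested, of 10 listed, that was higher in tumours over both genotypes (log2 fold change 0.69 ± 0.22, adjusted p = 0.044 by limma). That count stands beside 12.2% of all genes that passed as higher. The median log2 fold change of the 7 markers was 0.15 against 0.08 over all genes tested, and 5 of the 7 were above 0. Itgax and the class II mean correlated across the 6 tumours at r = 0.920 (exact permutation p = 0.00972, adjusted p = 0.0827, Spearman's rho = 0.943), and at 0.888 without the 2 tumours farthest from its median. The summed dendritic cell markers were 4.48 TPM in WT tumour 3, 9.41 and 13.0 TPM in the other WT tumours and 7.67 to 11.0 TPM in GKO tumours. In non-tumours the sum was no lower, at 5.127 to 12.08 TPM in WT and 9.955 to 12.65 TPM in GKO. Ptprc, CD45 of all leukocytes, was at 0.328 TPM in WT tumour 3 and 0.507 to 0.911 TPM in the other tumours. The summed markers of T and NK cells were also lowest there, at 4.53 TPM against 7.04 to 24.9 TPM. Of the dendritic cell markers, Ccl22 was at 0 in 5 samples, Cd209a in 2, and Flt3 and Siglech in 1 each. Of the T and NK cell markers, Klrb1c was at 0 in 5 samples, Ncr1 in 3, and Cd3d, Cd3e and Cd8a in 1 each. The part of these cells in the class II levels was not tested.

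Kupffer cell markers went the other way from Itgax in tumours against non-tumours. Of 12 macrophage and Kupffer cell markers, 4 were lower in tumours over both genotypes and 0 higher, namely Clec4f, Marco, Vsig4 and Timd4, with Clec4f at 1.18 to 37.9 TPM in tumours and 5.95 to 196 TPM in non-tumours (log2 fold change -2.97 ± 0.79, adjusted p = 0.0212 by limma). Of all 14106 genes tested, 1110 passed as lower in that comparison. The summed level of the 12 markers was 222.6 TPM in WT tumour 3, within the 215 to 608 TPM of the other tumours. C1qa, 1 of these markers, correlated with the class II mean across the 6 tumours at r = 0.666 (exact permutation p = 0.136, adjusted p = 0.236). Across the 12 samples without tumour its r was 0.630 (permutation p = 0.0279, adjusted p = 0.104). Clec4f had r = -0.14 and 0.27 with the class II mean in the same order. B cell markers, 6 tested of 9, and T and NK cell markers, 8 tested of 12, had 0 genes that passed over both genotypes. Within GKO, 2 of the 6 B cell markers were lower in tumours, among them Cd79b at -1.01 on the log2 scale, and 2 of the 12 macrophage and Kupffer cell markers, Marco at -3.25 and Timd4 at -2.06. There 560 of 14092 genes tested passed as lower. The summed B cell markers were 9.77 to 18.9 TPM in WT tumours, 3.92 to 11.1 TPM in GKO tumours and 3.99 to 31.8 TPM in non-tumours. Of other cell types, 4 of 9 endothelial markers were higher in tumours, among them Emcn at 1.41 and Cdh5 at 1.30 on the log2 scale, and 2 of 6 cholangiocyte markers, Tspan8 at 3.73 and Sox4 at 1.46. Of 9 hepatocyte markers 3 were higher, namely Ahsg, Alb and Apoa1, and Cyp2e1 was lower, at -4.84. The counts for these other cell types are over both genotypes, where 12.2% of all genes tested passed as higher and 20.1% in either direction. The part of these cell types in the levels of the 10 genes was not tested either. Among 10 genes tested of the 12 for other class II chains and lysosomal loading, 2 were higher over both genotypes and 0 lower, beside 12.2% of all genes that passed as higher. They were Ctsl, a cathepsin that trims the invariant chain in some cells, at 1.26 ± 0.35, and Cd40 at 1.78 ± 0.42. Cd40 is a receptor of antigen-presenting cells that other cells can also make. Cd40 was at 8.91 to 11.3 TPM in WT tumours and 0.536 to 3.98 TPM in GKO tumours. In GKO against WT tumours 0 of the 10 genes of this list passed, beside 0.0215% of all genes tested. Cd40 passed in WT tumours against WT non-tumours at 2.95 ± 0.21 on the log2 scale (adjusted p = 0.00149 by limma). It was high in WT tumour 3, at 8.91 TPM, where the class II genes were low.

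Within GKO, 6 of the 9 genes were higher in tumours than in non-tumours at an unadjusted p under 0.05, and 31.7% of all genes tested differed at that level in either direction. The log2 fold changes were 1.37 ± 0.37 for H2-Eb1, 1.22 ± 0.39 for H2-Ab1, 1.21 ± 0.39 for H2-D1, 0.98 ± 0.39 for Cd74, 0.83 ± 0.35 for H2-Aa and 0.81 ± 0.29 for H2-K1, while the median of all genes was 0.20. None passed after adjustment (limma, lowest adjusted p = 0.0558, for H2-Eb1), against 11.7% of all genes tested, and limma voom on the recovered reads also gave 0. The groups did not overlap for H2-K1, H2-D1 and H2-Eb1, which is 3 of 9 against 25.7% of all genes higher without overlap. Whether a gene passed depended on the setting: H2-Eb1 passed with a minimum mean of 5 TPM, H2-K1 and H2-D1 with all 18 samples in 1 fit, H2-Ab1, H2-Eb1 and Cd74 with the replicate number as a block, and H2-Ab1 without GKO non-tumour 1. In the same comparison the B cell marker Cd79b and the Kupffer cell markers Marco and Timd4 were lower.

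Within WT, 1 of the 9 genes, H2-D1, was without overlap, beside 11.0% of all genes higher without overlap, and was higher in tumours than in non-tumours at an unadjusted p under 0.05 (log2 fold change 0.71 ± 0.24, unadjusted p = 0.0219, adjusted p = 0.172 by limma), beside 19.9% of all genes. None passed after adjustment, where 4.23% of all genes did, and limma voom gave 0 as well. The 5 class II genes had log2 fold changes of 0.12 to 0.22 with SEs of 0.50 to 0.62. Without WT tumour 3 these were 0.66 to 0.87 with SEs of 0.29 to 0.38, and none passed. That sample was the lowest tumour in all 5 class II genes, so leaving it out had to raise their fold changes. Without it the comparison over both genotypes had 5 of the 9 genes passing as higher in place of 1. Of 14165 genes tested, 1983 passed as higher and 3061 in either direction. The 5 genes were H2-Eb1 at 1.14 ± 0.29, H2-Ab1 at 1.02 ± 0.28, H2-D1 at 1.00 ± 0.26, Cd74 at 0.88 ± 0.27 and H2-Aa at 0.84 ± 0.24, with adjusted p-values of 0.0162 to 0.0408 by limma. With WT tumour 3 the 4 class II genes among them had 0.49 to 0.77 and adjusted p-values of 0.182 to 0.373.

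**Figure D5:**
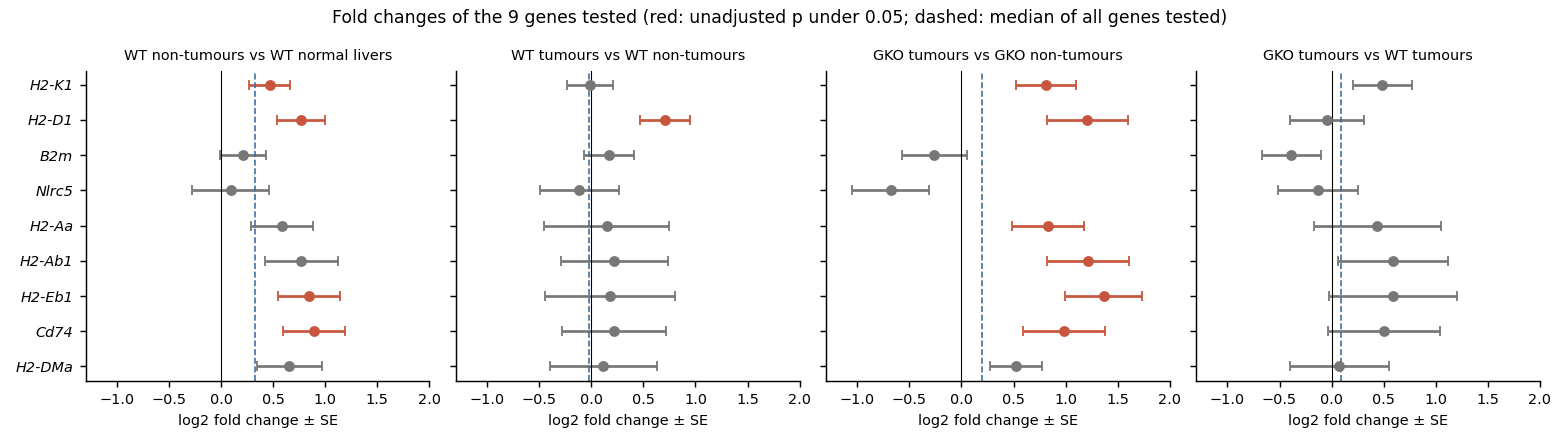
Log2 fold change with its SE for the 9 genes tested in 4 comparisons of 3 against 3 samples, in red where the unadjusted p was under 0.05, with the median of all genes tested as a dashed line. Of the genes shown, 6 are red in GKO tumours against GKO non-tumours and 1 in WT tumours against WT non-tumours.

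DEN-treated livers without tumour were compared with untreated livers. Normal livers of the 2 genotypes overlapped in all 10 genes: H2-Ab1, for example, was at 42.1, 29.5 and 70.0 TPM in WT and 54.4, 57.3 and 68.6 TPM in GKO, and H2-Aa at 19.75 to 37.7 and 31.05 to 37.8 TPM. In WT, H2-D1 was at 614 to 878 TPM in non-tumours and 395 to 533 TPM in normal livers, H2-K1 at 1297 to 1552 and 945 to 1147 TPM, Cd74 at 116 to 174 and 50.7 to 98.45 TPM, and H2-Eb1 at 69.2 to 120.3 and 37.4 to 64.65 TPM. None of these 4 overlapped, and they were higher at an unadjusted p under 0.05, with log2 fold changes of 0.77 ± 0.23, 0.47 ± 0.19, 0.89 ± 0.30 and 0.85 ± 0.30. The whole table moved the same way: 31.0% of all genes were higher without overlap, 24.4% differed at an unadjusted p under 0.05, and the median gene had a log2 fold change of 0.32. With the samples centred on their median gene, the 4 genes had 0.39, 0.09, 0.52 and 0.47, and none had an unadjusted p under 0.05. After adjustment 0 of the 9 passed, by limma and by limma voom, against 0.00744% of all genes. In GKO 0 of the 9 genes differed at an unadjusted p under 0.05 or passed (0.00% of all genes passed, 5.20% at the unadjusted level), with log2 fold changes between -0.23 and 0.32. Over both genotypes 0 of 9 passed by limma and limma voom, with 0.400% of all genes passing, and H2-D1 had an unadjusted p of 0.0271 (log2 fold change 0.46 ± 0.18), where 20.8% of genes were under 0.05.

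The genotypes were then compared within each tissue. In tumours 0 of the 9 genes passed or had an unadjusted p under 0.05 (limma and limma voom, 0.0215% of all genes passed and 8.87% were under the unadjusted level). The log2 fold changes of GKO against WT tumours were 0.49 ± 0.28 for H2-K1, -0.05 ± 0.36 for H2-D1, -0.39 ± 0.28 for B2m and 0.44 to 0.59 for H2-Aa, H2-Ab1, H2-Eb1 and Cd74, with SEs of 0.53 to 0.62. Without WT tumour 3 these 4 class II genes had -0.27, 0.04, -0.10 and -0.03, so the sign of H2-Aa, H2-Eb1 and Cd74 rested on that sample. In non-tumours 0 of 9 passed by either tool, where 0.00% of all genes did, and 0 had an unadjusted p under 0.05, where 5.80% did. H2-K1 was the 1 gene without overlap, lower in GKO at 985 to 1225 TPM against 1297 to 1552 TPM (log2 fold change -0.35 ± 0.21), and 9.32% of all genes were lower without overlap. In normal livers 0 of 9 passed by either tool or had an unadjusted p under 0.05 (0.00% and 3.96% of all genes). H2-Eb1 had the lowest unadjusted p there, 0.0711, at a log2 fold change of 0.48 ± 0.23. Whether the genotype effect in tumours differed from that in non-tumours was tested by an interaction term, which passed for 0 of 9 genes by limma and limma voom, against 0.0142% of all genes, and 1 of 9, H2-K1, was under the unadjusted level, as were 10.5% of all genes.

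The deleted locus encodes miR-181a and miR-181b, which share a seed, shown in capitals (bases 2 to 8), because a match to it in a transcript is how such microRNAs find their targets.
mmu-miR-181a-5p: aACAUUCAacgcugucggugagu
mmu-miR-181b-5p: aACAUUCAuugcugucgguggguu

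The match, TGAATGT, was found once each in the longest annotated 3′ untranslated regions of H2-K1, H2-D1, H2-Ab1 and Cd74 and in 0 of the other 6 genes. That is 4 of 10 genes, beside 16.4% of 21028 mouse genes. In normal livers, GKO against WT, these 4 had log2 fold changes of 0.01 ± 0.19, 0.07 ± 0.20, 0.42 ± 0.30 and 0.47 ± 0.29. H2-Aa and H2-Eb1, which hold no match, had 0.35 ± 0.24 and 0.48 ± 0.23. B2m, H2-DMa and Nlrc5, also without a match, had -0.07, 0.19 and 0.25. In tumours the 4 with a match had 0.49, -0.05, 0.59 and 0.50, and in non-tumours -0.35, -0.55, -0.41 and -0.26. H2-Aa, H2-Eb1, B2m, H2-DMa and Nlrc5 had 0.44, 0.59, -0.39, 0.08 and -0.13 in tumours. In non-tumours they had -0.25, -0.60, 0.04, -0.34 and 0.44. None passed in any tissue, and an effect of the matches was not tested.

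The genes most like the class II mean over the 18 samples, among 11888 genes averaging 1 TPM or more, were Pkm, Rgs10, CAAA01118383.1, S100g, Rgs2 and Selplg, with Pearson r from 0.861 to 0.919. Pkm, pyruvate kinase M, had r = 0.817 in the 12 samples without tumour, 0.987 in the 6 tumours and 0.882 after subtraction of the group means. Selplg, a ligand for selectins on leukocytes, had 0.735, 0.906 and 0.772. The genes most like the class I mean were H2-Q4, Tgif1, Psmb9, H2-T22, Isyna1 and Pik3c2b, with r from 0.851 to 0.890. H2-Q4 is another class I chain, and Psmb9, a subunit of the immunoproteasome that cuts peptides for class I, had r = 0.816 in the samples without tumour, 0.676 in the tumours and 0.702 after subtraction of the group means. These likenesses were the highest of many and are given as a description.

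In the 12 samples without tumour, the class I mean rose with Irf1 at r = 0.800 (permutation p = 0.00193, adjusted p = 0.0251 over 26 relations, n = 12), with Spearman's rho = 0.748 (permutation p = 0.00682, adjusted p = 0.111) and r = 0.677 without the 2 samples farthest from the median of Irf1. These samples form 4 groups, and the permutation does not keep samples within them; after subtraction of the group means r was 0.695. In the 6 tumours r was -0.21 (exact permutation p = 0.692). The class II mean rose with Cd3e, a T cell receptor chain, in the 12 samples without tumour, at r = 0.845 (permutation p = 0.00065, adjusted p = 0.0169, n = 12), with Spearman's rho = 0.650 (permutation p = 0.0265, adjusted p = 0.167) and r = 0.614 without the 2 farthest samples, and 0.853 after subtraction of the group means. Cd3e was low, at 0 to 1.07 TPM in these samples. In the tumours r was 0.407 and fell to -0.50 without 2 samples. The other 24 of the 26 relations did not pass after adjustment.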

How the data were processed

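Liver RNA from 18 samples was sequenced, and the deposited table held TPM per gene, computed by the authors from reads aligned with STAR 2.7.3a to mm10 and counted with featureCounts 2.0.0. The annotation and the TPM calculation were not given in the sources used here. The 10 genes and the gene lists were chosen with earlier results of these data known. All values came from that table, in which every column belonged to a labelled sample, and 158 of 159 list genes were found.

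On the samples of each comparison, log2(TPM + 1), with a pseudocount of 1, was fitted by limma 3.58.1 (R 4.3.3, lmFit and eBayes with a trend) for genes averaging 0.5 TPM or more. Benjamini-Hochberg adjustment ran over all genes tested. The fit was also run on simulated data with larger planted changes than those of the genes examined, which does not show its power at their sizes. Reads were recovered from the TPM steps and the exonic length in GENCODE M21, which matched 54809 of 54838 genes, and low values came out whole within 0.02 reads for 97.95% to 98.67% of genes. Precision of low levels is limited by these reads. Alternatives were a pseudocount of 0.1, no filter, a minimum mean of 5 TPM, median centring, quantile normalization, 1 fit of all samples, no trend, the replicate number as a block, limma voom on recovered reads, WT tumours 1 and 2 averaged, and leaving out each sample. Ratios were tested by exact permutation, two-sided. Replicates share numbers across groups. In GKO against WT tumours, deviations of samples with the same number correlated at r = 0.101 to 0.197, and in the other comparisons of 3 against 3 samples at least 1 pair was under 0.1. The labels do not tie replicates to mice. A supplementary legend on mRNA levels in tumours and non-tumours gives 3 mice a group, and no such statement was found for normal livers, so p-values measure the spread between these samples. Genes named from a list were up to 4 that passed in a comparison, by size of change, and the 2 that did not pass with the highest mean TPM; other names, such as H2-Q1, Cd1d1, Irf1, Ifng, Cd3e and Ptprc, were chosen for their role or after their values were seen. Genes like a class were the 6 with the highest Pearson r to its mean. Sequences came from RefSeq on GRCm38.p6.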

Additional observations from a re-analysis of the deposited data

How the results depend on the processing

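H2-D1 in tumours against non-tumours over both genotypes kept its direction and passed under every alternative run, with adjusted p-values of 0.00344 to 0.0398. Of the 9 genes tested, 1 passed in that comparison, and 1 to 5 when single samples were left out, the 5 without WT tumour 3. In GKO tumours against GKO non-tumours 0 passed, but 1 with a minimum mean of 5 TPM, 2 with all 18 samples in 1 fit, 3 with the replicate block (H2-Ab1, H2-Eb1 and Cd74) and 0 to 1 when single samples were left out, the 1 being H2-Ab1 without GKO non-tumour 1. In GKO against WT tumours the block gave 0 genes of the whole table in place of 3 and 0 of the 9. Deviations of samples with the same number correlated there at r = 0.101 to 0.197. Samples with different numbers were not compared, so these values cannot show pairing. The block changed no other call among the 9 genes. Leaving out single samples turned the sign in GKO against WT tumours for 6 genes, whose log2 fold changes ranged from -0.41 to 0.27 for H2-D1, -0.27 to 0.91 for H2-Aa, -0.10 to 1.15 for H2-Eb1, -0.0275 to 0.97 for Cd74, -0.46 to 0.41 for H2-DMa and -0.42 to 0.29 for Nlrc5. With quantile normalization H2-DMa was at -0.0227 there. None of these values passed, and the cause was not tested. Over the whole table the genes passing numbered 2829 in tumours against non-tumours over both genotypes (1662 to 3840 under the other settings and 1867 to 3797 with single samples left out), 1652 within GKO (589 to 2722 and 229 to 1567), 592 within WT (185 to 1649 and 163 to 1363), 54 in non-tumours against normal livers (2 to 52 and 1 to 738) and 3 in GKO against WT tumours (0 to 107 and 0 to 147).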
